A study of Mus musculus with 4 samples.

Results

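A set of 31 mouse interferon-stimulated genes was examined in irradiated intestinal organoids given the CBP/p300 bromodomain inhibitor SGC-CBP30 or vehicle. The genes were taken by symbol from a list chosen with earlier results of these data known. All 31 were found among the 51509 genes of the deposited count table, each under 1 gene identifier. The organoids are self-organising epithelial cultures, here labelled as intestine of C57BL/6 mice of wild-type genotype and an age of 8 to 12 weeks. Every library, vehicle included, was made from total RNA taken 36 hours after 8 Gy of irradiation, so the comparison is between irradiated cultures and no unirradiated group was analysed here. SGC-CBP30 is a small molecule that occupies the acetyl-lysine binding domain of the acetyltransferases CBP and p300. There were 2 vehicle and 2 SGC-CBP30 libraries. The library here called SGC-CBP30 2 has SGC-CBP31 as its treatment label and was placed by its title and the stated group size. The treated libraries are therefore shown apart for most genes. RPKM levels and some fold changes are given only for the group. The labels do not say whether replicates were separate cultures, so p-values reflect only how far these libraries spread, a spread that may be technical.

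Interferons are secreted proteins made by cells that sense viral or misplaced nucleic acid. Type I and type III interferons act through receptors and JAK kinases that phosphorylate STAT proteins, and STAT2 with IRF9 takes part in the complex that binds the interferon-stimulated response element in the promoters of their target genes. Interferon gamma acts mainly through a different element, the gamma-activated site. The targets include antiviral effectors, the nucleic acid sensors themselves and feedback regulators, and the intestinal epithelium is known for its response to type III interferon. CBP and p300 are coactivators at such promoters.

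The response element was looked for in RefSeq promoter windows of GRCm38.p6, each 300 bases long with 250 bases before and 50 after a transcription start. Of the 31 genes, 22 had a window, and 14 of these (63.6%) held the core of the element (GAAA, any 2 bases, then GAAA) on either strand. Among all 27025 genes with a window the share was 3.99%, and among all 32851 windows it was 3.44%. The gamma-activated site (TTC, any 3 bases, then GAA), which reads the same on both strands, was in 6 of the 22 genes (27.3%) and in 9.55% of all genes; in Bst2 and Ifitm3 it overlaps a match of the first motif. The core was in 4 of the 6 genes with a window that rose with SGC-CBP30, in the 1 that fell, and in 7 of the 13 tested genes that did not pass. Counting only matches before the start, it was in 3 that rose, 0 that fell, 6 that did not pass and 2 not tested. In 11 of the 14 genes in all, a match thus lay before the start. Of these, 6 are shown, 3 that rose and 3 classical effectors that differed between the treated libraries, with matches in capitals and read 5′ to 3′ along the gene's strand. A match is a description of the letters, not evidence of binding.
Oas1a, chr5:120907526-120907557, minus strand: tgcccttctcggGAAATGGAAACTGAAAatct
Oas3, chr5:120777713-120777746, minus strand: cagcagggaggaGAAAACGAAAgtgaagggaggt
Ifit3, chr19:34583361-34583428, plus strand: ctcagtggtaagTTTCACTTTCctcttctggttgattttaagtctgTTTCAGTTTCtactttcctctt
Ifit1, chr19:34640773-34640825, plus strand: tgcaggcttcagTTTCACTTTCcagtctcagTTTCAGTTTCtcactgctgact
Isg15, chr4:156200863-156200908, minus strand: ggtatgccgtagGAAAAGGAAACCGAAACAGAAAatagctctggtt
Rsad2, chr12:26456551-26456584, minus strand: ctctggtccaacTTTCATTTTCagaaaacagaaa
Ifit1 and Ifit3 carry 2 separate matches, Isg15 holds 3 that overlap in 1 run, and Oas1a holds 2 overlapping matches that begin 20 bases before the start. Irf7 and Oasl1, which rose, held no match in their windows.

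Library totals were 16433117 to 18087250 counts, and 20980 to 21933 genes had at least 1 count. The epithelial markers were abundant, with a summed level of 11703 and 11646 CPM (counts scaled to library size with TMM factors) in the vehicle libraries and 14437 and 12715 CPM in SGC-CBP30 1 and 2, led by Krt8 and Lgals4. Of the 10 epithelial markers 5 rose, 1 fell and 4 did not pass. The shares over all genes tested were 13.6% higher and 16.3% lower. Markers of other cell types were scarce. The 20 leukocyte markers summed to 6.83 to 9.85 CPM with vehicle and 5.88 to 6.55 CPM with SGC-CBP30. Of these, 5 had no count, and the pan-leukocyte gene Ptprc had 5 to 7 counts in each library. The 10 fibroblast markers, 2 of them without a count, summed to 17.1 to 17.8 CPM with vehicle and 10.99 to 13.5 CPM with SGC-CBP30, most of it Vim. The 8 endothelial markers summed to 2.44 to 2.63 CPM and 1.99 to 2.47 CPM. The most counted were Csf1r and Cd68 of the leukocyte list, Vim and Pdgfrb of the fibroblast list, and Pecam1 and Tek of the endothelial list. Of the 7 markers of these 3 lists that could be tested, 2 fell and 0 rose: Csf1r, a macrophage receptor gene (log2 fold change -1.95, edgeR adjusted p = 0.00106), and Vim (-0.75). Some untested markers had more counts with SGC-CBP30 and others fewer, and those named here were picked after their values were seen. More were counted for Itgax (2 and 1 against 13 and 9) and Col3a1 (1 and 1 against 16 and 7). So it was for Col1a1 (0 and 0 against 9 and 2) and Cdh5 (1 and 0 against 7 and 5). Fewer were counted for Ptprc (7 and 6 against 6 and 5) and Cd79a (2 and 2 against 1 and 0). Tek had 8 and 13 counts with vehicle against 9 and 3. The part of any of these markers in the results was not tested. Differences between replicates exceeded sampling noise in both groups (chi-square over its degrees of freedom, 2.97 in the vehicle pair and 6.22 in the treated pair).

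The interferon-stimulated genes did not move in one direction with SGC-CBP30. Of the 28 that passed the filter on low counts, 6 rose, 3 fell and the other 19 missed the threshold (edgeR's quasi-likelihood test, with adjustment by Benjamini-Hochberg over 14684 genes and a threshold of 0.05). Those that rose were Irf7, Oas1a, Oas3, Oasl1, Ifih1 and Ifit3, and those that fell were Mx1, Ifitm3 and Parp14. Over all genes tested, 30.0% were called, 13.6% higher and 16.3% lower, so the number of members called lies near the background. Without vehicle 2, 2899 genes were called in place of 4401, and the members called were again 6 higher and 3 lower. The split over all genes was 2004 higher against 2397 lower, and 2907 against 1924 when library totals replaced the TMM factors. The members' median log2 fold change was 0.28, against 0.0096 over all genes tested, and 19 of 28 were positive (67.9%, against 51.2% of all genes). Without SGC-CBP30 1 that median was 0.035, and without SGC-CBP30 2 it was 0.38. With at least 50 counts required in 2 libraries it was 0.13, as poorly counted members such as Ifit3 and Usp18 were left out. The groups did not overlap in 17 of 28 members, against 63.1% of all genes tested. In bulk samples, fewer cells of a type and less RNA per cell cannot be told apart. Oas2, Gbp2 and Gbp3 had at most 6 counts in any library and were not tested.

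**Figure D1:**
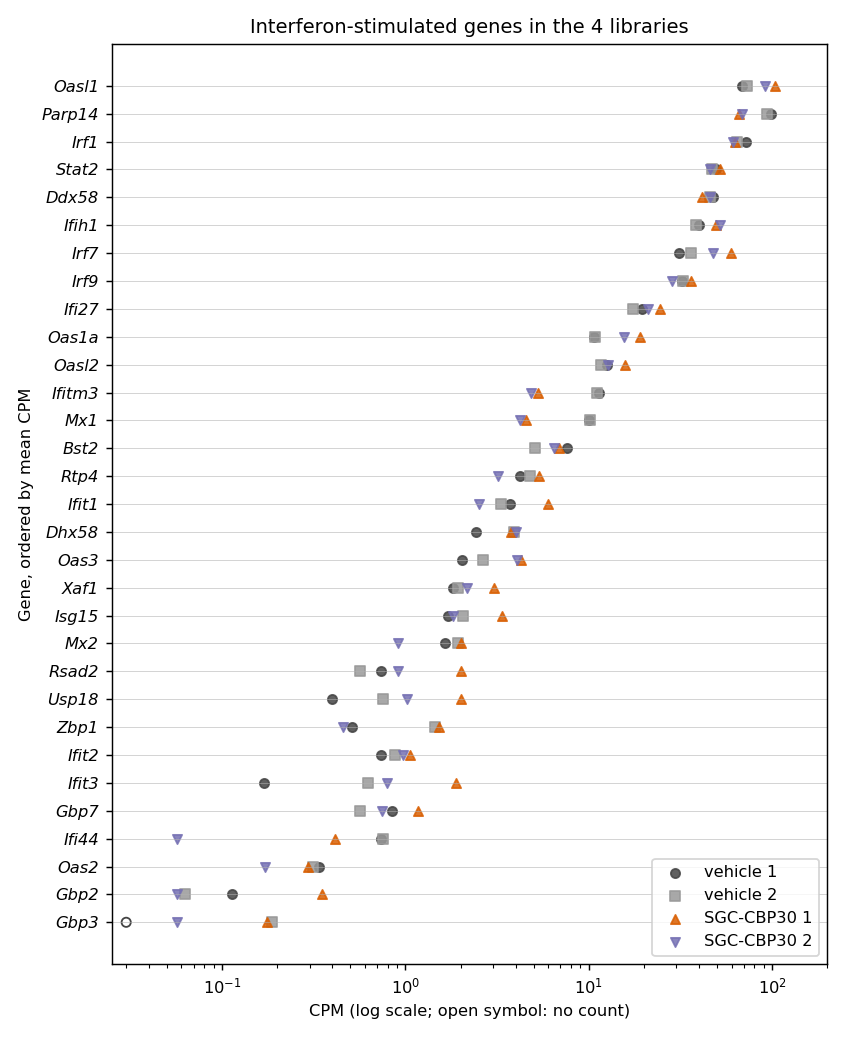
Level of each of the 31 genes in CPM (log axis) in the 4 libraries, ordered by mean level; each symbol is 1 library and an open symbol marks a gene with no count. Oasl1 and Parp14 lie near the top at 66.1 to 103 CPM, and the genes from Ifit1 downwards, mostly under 6 CPM, show SGC-CBP30 1 (upward triangles) to the right of SGC-CBP30 2 (downward triangles) in most rows.

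Levels between genes were compared per kilobase, as RPKM computed from the CPM and the deposited gene length. In vehicle libraries Oasl1 was highest at 27.2 ± 1.22 RPKM (SD, n = 2). Irf1 at 17.2 ± 1.31 and Ifitm3 at 16.5 ± 0.308 RPKM followed and did not differ beyond their spread. Ifi27 stood at 12.5 ± 0.994 RPKM, Parp14 at 10.3 ± 0.330 and Irf7 at 8.90 ± 0.961. With SGC-CBP30 the order below Oasl1 (37.2 ± 3.36 RPKM) changed: Irf1 (15.6 ± 0.317), Ifi27 (15.5 ± 1.66) and Irf7 (14.2 ± 2.22) lay within their spread of one another, while Ifitm3 stood at 7.47 ± 0.468 RPKM. The classical effectors Isg15, Ifit1 and Rsad2 were low in both groups, with vehicle levels of 2.49, 1.33 and 0.150 RPKM.

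Of the 4 transcription factor genes, only Irf7 passed the threshold, where 30.0% of all genes tested did. Irf7 (ENSMUSG00000025498, chromosome 7, 141262706 to 141266481, minus strand, GRCm38) encodes the factor that amplifies type I interferon production and is itself an interferon target. It had 31.03 and 36.2 CPM in the vehicle libraries and 59.6 and 47.7 CPM in SGC-CBP30 1 and 2. Both treated libraries were above both vehicle libraries. The log2 fold change was 0.68 ± 0.11 (SE), or 1.60-fold (edgeR adjusted p = 2.61e-05). Of the exon bases of Irf7, 45 are shared with Phrf1 on the opposite strand, 1.19% of its exons. Stat2 and Irf9, whose products take part in the complex that binds the response element, did not pass the threshold. Stat2 had 49.2 and 47.1 CPM with vehicle and 52.0 and 45.7 CPM with SGC-CBP30, a log2 fold change of 0.019 ± 0.090. Irf9 had 32.3 and 32.8 CPM with vehicle and 36.0 and 28.4 CPM with SGC-CBP30, a log2 fold change of -0.015 ± 0.11, with the treated libraries on either side of the vehicle ones. Irf9 shares 123 exon bases (2.28% of its exons) with Rnf31 on the same strand. Irf1, the factor best known downstream of interferon gamma, had 72.0 and 64.6 CPM with vehicle and 62.9 and 61.1 CPM with SGC-CBP30, a log2 fold change of -0.14 ± 0.080 that missed the threshold (edgeR adjusted p = 0.203).

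Of the 4 tested members from the OAS family, 3 rose, where 13.6% of all genes tested were called higher. Outside the members, Oas1g fell (log2 fold change -0.48), and Oas1b (0.44) and Oas1c (0.62) did not pass. OAS proteins sense double-stranded RNA, and the catalytically active ones make 2'-5'-linked oligoadenylates that activate RNase L. Oasl1 (ENSMUSG00000041827, chromosome 5, 114923240 to 114937915, plus strand), an OAS-like protein known to restrain Irf7 translation in mice, had 68.6 and 73.1 CPM with vehicle and 103 and 90.8 CPM with SGC-CBP30. Its log2 fold change was 0.45 ± 0.079 (1.37-fold, edgeR adjusted p = 8.65e-05), and the groups did not overlap. Oas1a (ENSMUSG00000052776, chromosome 5, 120896256 to 120907521, minus strand) had 10.7 and 10.8 CPM with vehicle and 19.0 and 15.5 CPM with SGC-CBP30, a log2 fold change of 0.68 ± 0.15 (1.60-fold, edgeR adjusted p = 8.46e-04). Its neighbour Oas1g is a close copy that fell (log2 fold change -0.48, edgeR adjusted p = 0.0270), and how reads were divided between them is not given in the sources used here. The summed level of the pair, set out after the values were seen, was 24.2 and 23.1 CPM with vehicle and 29.2 and 24.0 CPM with SGC-CBP30, so that the summed ranges overlap. The separate rise of Oas1a is therefore uncertain. Oas3, a large member with several OAS units, had 2.04 and 2.63 CPM with vehicle and 4.29 and 4.04 CPM with SGC-CBP30 (log2 fold change 0.84 ± 0.29, edgeR adjusted p = 0.0324). That call was lost in DESeq2 (adjusted p = 0.120), without vehicle 1 (0.201), without SGC-CBP30 1 (0.111) and without SGC-CBP30 2 (0.0621), with log2 fold changes of 0.66 to 0.88 in these fits. Oasl2 had 12.6 and 11.7 CPM with vehicle and 15.7 and 12.8 CPM with SGC-CBP30, and its log2 fold change of 0.23 ± 0.15 did not pass. Oas2 had 6, 5, 5 and 3 counts in vehicle 1, vehicle 2, SGC-CBP30 1 and SGC-CBP30 2.

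Among the sensors, Ifih1 rose while Ddx58 was not past the threshold. Ifih1 (ENSMUSG00000026896, chromosome 2, 62595798 to 62646255, minus strand) encodes MDA5, a cytosolic helicase that detects long double-stranded RNA. It had 39.8 and 38.5 CPM with vehicle and 49.4 and 52.0 CPM with SGC-CBP30, without overlap. The log2 fold change was 0.37 ± 0.089 (1.29-fold, edgeR adjusted p = 0.00226), and here SGC-CBP30 2 was the higher of the treated libraries. Ddx58, which encodes the sensor RIG-I, had 47.4 and 45.5 CPM with vehicle and 41.2 and 45.6 CPM with SGC-CBP30 (-0.098 ± 0.090). Dhx58, the gene of the helicase LGP2 that tunes both sensors, had 2.44 and 3.89 CPM with vehicle and 3.76 and 3.99 CPM with SGC-CBP30 (0.30 ± 0.29). Zbp1, a sensor of Z-form nucleic acid linked to necroptosis, was spread widely inside each group, with 9 and 23 counts in the vehicle libraries and 26 and 8 in the SGC-CBP30 libraries (0.036 ± 0.59).

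The 3 genes that fell were all among the 10 grouped as GTPases, viperin and other effectors. The share called lower over all genes tested was 16.3%. Mx1 (ENSMUSG00000000386, chromosome 16, 97447035 to 97462907, minus strand) encodes a dynamin-like antiviral GTPase whose allele in C57BL/6 mice is truncated and lacks activity. It had 9.97 and 10.2 CPM with vehicle and 4.53 and 4.21 CPM with SGC-CBP30, and the groups lay far apart. The log2 fold change was -1.20 ± 0.20, or 2.30-fold lower (edgeR adjusted p = 4.61e-05). Ifitm3 (ENSMUSG00000025492, chromosome 7, 141009586 to 141010770, minus strand), a membrane protein that blocks virus fusion in endosomes, had 11.3 and 11.0 CPM with vehicle and 5.29 and 4.84 CPM with SGC-CBP30. It was 2.21-fold lower (log2 fold change -1.14 ± 0.19, edgeR adjusted p = 4.15e-05). For its paralog Ifitm2, chosen once the values were known, the log2 fold change was 0.021 ± 0.14. Parp14 (ENSMUSG00000034422, chromosome 16, 35832874 to 35871544, minus strand), a large mono-ADP-ribosyltransferase, had 98.5 and 94.1 CPM with vehicle and 66.1 and 68.2 CPM with SGC-CBP30, 1.43-fold lower (-0.52 ± 0.074, edgeR adjusted p = 6.31e-06). In each of these 3 genes the treated libraries lay close together, and each kept its call in every alternative run.

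The other effectors did not pass the threshold. Ifi27, whose product sits in mitochondrial and nuclear membranes, had 19.4 and 17.4 CPM with vehicle and 24.5 and 21.02 CPM with SGC-CBP30, a log2 fold change of 0.30 ± 0.13 (edgeR adjusted p = 0.0713). It passed the threshold without SGC-CBP30 2 (0.0200) and under library-total scaling (0.0236), with log2 fold changes of 0.41 and 0.38. Rsad2, the gene of viperin, which makes a chain-terminating nucleotide, had 13 and 9 counts with vehicle and 34 and 16 with SGC-CBP30 (1.14 ± 0.53, edgeR adjusted p = 0.111), and passed only without SGC-CBP30 2 (1.60, adjusted p = 0.0437). Bst2, the gene of tetherin, which holds budding virus at the cell surface, had 7.59 and 5.08 CPM with vehicle and 6.88 and 6.44 CPM with SGC-CBP30. For Xaf1, an antagonist of the apoptosis inhibitor XIAP, the log2 fold change was 0.47 ± 0.35. Rtp4 (-0.069 ± 0.27) and Mx2 (-0.30 ± 0.43) overlapped between groups. The deposited biotype of Mx2 is polymorphic pseudogene. Ifi44 had 13 and 12 counts with vehicle and 7 and 1 with SGC-CBP30 (-1.65 ± 0.77, edgeR adjusted p = 0.113).

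IFIT proteins bind viral RNA that lacks the host cap structure. Ifit3 (ENSMUSG00000074896, chromosome 19, 34583531 to 34588731, plus strand) had 3 and 10 counts with vehicle and 32 and 14 with SGC-CBP30, a log2 fold change of 1.76 ± 0.64 (edgeR adjusted p = 0.0408). The call was lost in DESeq2 (adjusted p = 0.133), without vehicle 1 (0.330, log2 fold change 1.08) and without SGC-CBP30 1 (0.507, log2 fold change 1.01). Its close copy Ifit3b had 9, 21, 9 and 6 counts in the same order, and the pair summed to 12 and 31 counts with vehicle and 41 and 20 with SGC-CBP30, which overlap. Ifit3 thus rests on few counts and on an unknown split of reads with its copy. Ifit1 had 66 and 53 counts with vehicle but 102 and 44 with SGC-CBP30, so that its treated libraries fell on opposite sides of the vehicle pair (0.26 ± 0.32). It passed the threshold as higher without SGC-CBP30 2 (0.76, edgeR adjusted p = 0.0484) and stood at -0.50 without SGC-CBP30 1 (adjusted p = 0.382). Summed with its paralog Ifit1bl1, the level was 13.8 and 14.04 CPM with vehicle and 14.3 and 9.57 CPM with SGC-CBP30. The mean of the pair was lower with treatment (ratio 0.858) while that of Ifit1 alone was higher. Ifit1bl1 had more counts than Ifit1 in each library, and whether reads were divided between them was not tested. Ifit2 had 13 and 14 counts with vehicle and 18 and 17 with SGC-CBP30.

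ISG15 is a ubiquitin-like modifier, and USP18 removes it from proteins and also damps the type I receptor. Isg15 had 30 and 33 counts with vehicle and 57 and 32 with SGC-CBP30, and only SGC-CBP30 1 stood above the vehicle libraries. Usp18 had 7 and 12 counts with vehicle and 34 and 18 with SGC-CBP30, a log2 fold change of 1.40 ± 0.54 (edgeR adjusted p = 0.0550). Usp18 passed without SGC-CBP30 2 (1.80, adjusted p = 0.0271) and under library-total scaling (adjusted p = 0.0409). Guanylate-binding proteins attack vacuoles that hold pathogens and are induced chiefly by interferon gamma. Their genes were barely detected, with 15 and 9 counts of Gbp7 in the vehicle libraries and 20 and 13 in the SGC-CBP30 libraries. Gbp2 had 2, 1, 6 and 1 counts and Gbp3 had 0, 3, 3 and 1 in the same order, where 3 counts equal 0.170 to 0.188 CPM.

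**Figure D2:**
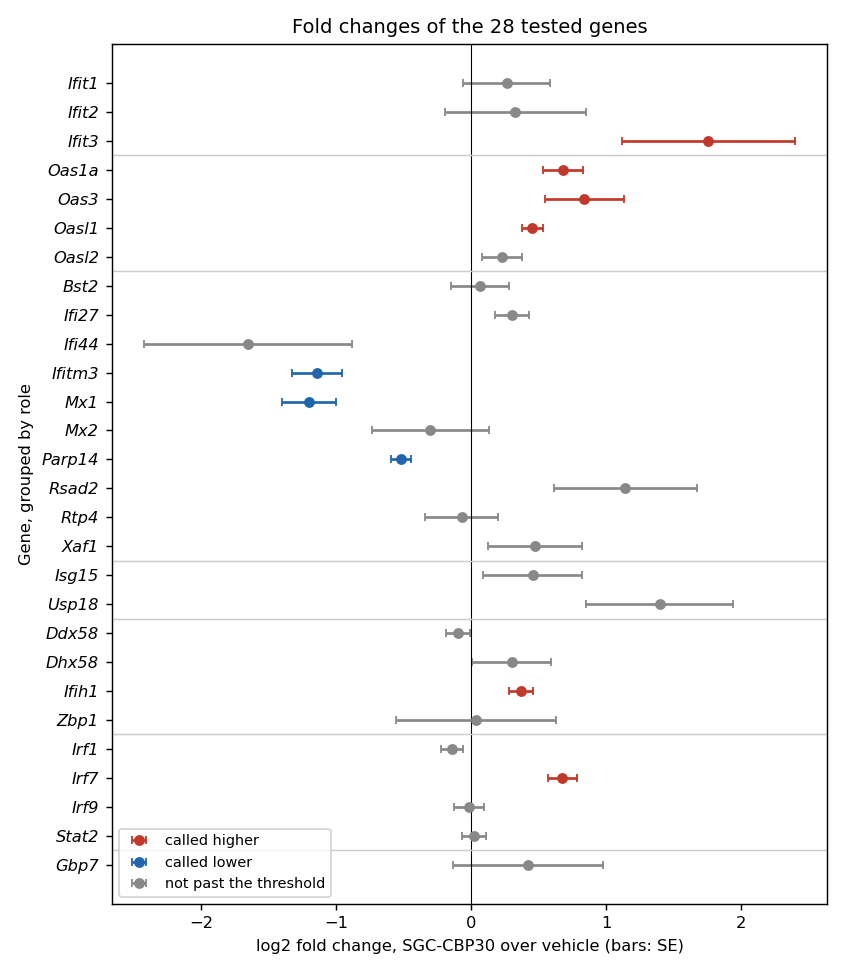
Log2 fold change (SGC-CBP30 over vehicle) for the 28 tested genes, grouped by role; points are edgeR estimates, bars are 1 SE and colour gives the call. The 6 genes called higher run from 0.37 (Ifih1) to 1.76 (Ifit3), the 3 called lower from -0.52 (Parp14) to -1.20 (Mx1), and the widest bars belong to genes with few counts such as Ifi44 and Ifit3.

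The treated libraries differed from each other in these genes more often than in the table as a whole, a description with no test between conditions. SGC-CBP30 1 was the higher of the treated libraries in 24 of the 28 tested members, against 51.5% of all genes tested. The median log2 ratio of SGC-CBP30 1 to SGC-CBP30 2, after adding 2 counts, was 0.29 in the members and 0.0086 over all genes tested. In 15 members (53.6%) the ratio exceeded 1 beyond its exact binomial 95% counting interval, and in 0 members it lay below 1 beyond that interval. Over all genes tested, the shares were 15.6% above and 13.1% below. Such intervals cover counting error only and compare these libraries, not conditions. In the vehicle pair, 12 of the 28 members were higher in vehicle 1, with 2 above and 3 below 1 beyond the interval. The largest of the gaps bounded by an interval above 1 was in Zbp1, with a ratio of 3.35 (1.47 to 8.57). Ifit1 had a ratio of 2.39 (1.66 to 3.49), Ifit3 of 2.36 (1.22 to 4.78), Rsad2 and Mx2 each of 2.19 (1.18 to 4.26) and Usp18 of 1.95 (1.07 to 3.67). Isg15 had 1.84 (1.17 to 2.93) and Rtp4 1.68 (1.19 to 2.38). The better-counted Irf9 and Irf7 showed smaller ratios of 1.27 (1.13 to 1.43) and 1.25 (1.14 to 1.37). Parp14, Mx1, Ifitm3, Oas3 and Ifih1 had intervals that include 1.

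Set against the vehicle mean apart, SGC-CBP30 1 was above it in 22 of 28 members with a median log2 ratio of 0.36, and SGC-CBP30 2 in 15 of 28 with a median of 0.059. In 21 of 28 both libraries lay on the same side of the vehicle mean. Irf7 was at 0.83 in SGC-CBP30 1 and 0.51 in SGC-CBP30 2, and Oasl1 at 0.54 and 0.36. Isg15 was at 0.80 and -0.042 and Ifit1 at 0.75 and -0.48. Mx1 was at -1.13 and -1.23 and Ifitm3 at -1.06 and -1.19. The fall of Mx1, Ifitm3 and Parp14 was thus of like size in each treated library, whereas Isg15, Ifit1, Rtp4, Mx2, Zbp1, Irf9 and Stat2 were above vehicle in SGC-CBP30 1 and below it in SGC-CBP30 2. Leaving out SGC-CBP30 2 gave 9 members called higher and 3 lower, and leaving out SGC-CBP30 1 gave 4 and 3. The different treatment label of SGC-CBP30 2 and this difference cannot be told apart from any other difference between these libraries.

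**Figure D3:**
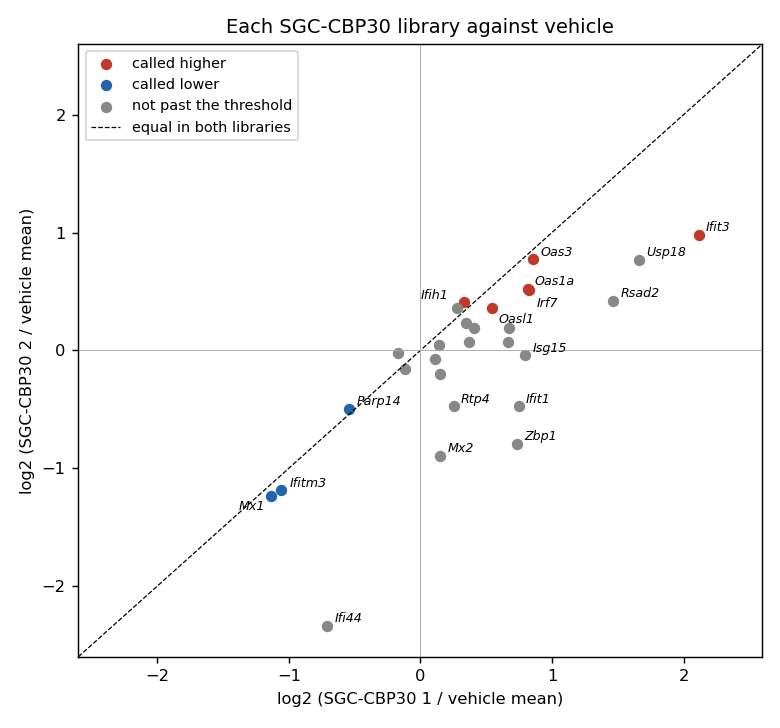
Log2 ratio of SGC-CBP30 1 (x axis) and SGC-CBP30 2 (y axis) to the mean of the vehicle libraries, 2 counts added, for the 28 tested genes, coloured by call; the dashed line marks equal values. Most points lie below the line, with Ifit1 at 0.75 and -0.48, while Parp14, Mx1 and Ifitm3 lie close to it below 0 on both axes.

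Interferon transcripts themselves were scarcely detected. Of 21 interferon genes 17, Ifnb1 among them, had no count in any library, and the most counted, Ifnk, had 11 counts over the 4 libraries. None was tested, and a gene without a count lies below the level of 3 counts given above. The 16 genes of interferon receptors and JAK-STAT signalling were all tested, and 2 rose, 5 fell and the other 9 missed the threshold. The shares over all genes tested were 13.6% higher and 16.3% lower. Ifngr2, the second chain of the interferon gamma receptor, fell from 175 and 180 CPM to 142 and 139 CPM (log2 fold change -0.34 ± 0.064). The feedback inhibitor gene Socs3 fell by 0.70 ± 0.15 on the log2 scale, and the phosphatase gene Ptpn11 rose by 0.33 ± 0.069. Without vehicle 1, or without vehicle 2, 3 of the receptor and JAK-STAT genes were called lower.

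Of 15 tested genes of sensing adaptors and the IRF3 pathway, 2 rose, 4 fell and the other 9 missed the threshold. The shares over all genes tested were 13.6% higher and 16.3% lower. Mavs, the mitochondrial adaptor of RIG-I and MDA5, fell from 105 and 111 CPM to 76.8 and 78.0 CPM (-0.48 ± 0.072, edgeR adjusted p = 1.21e-05). Tlr3, the endosomal double-stranded RNA receptor gene, fell by 0.51 ± 0.13 and Traf3, which links these adaptors to kinases, by 0.31 ± 0.079. Without vehicle 1, or without vehicle 2, 2 genes of this list were called lower, and those called higher were 1 and 0. Without SGC-CBP30 1, 0 were called higher. Ifih1 thus rose while the gene of its adaptor fell in the same libraries.

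Of 16 interferon-inducible GTPase genes outside the members, 6 had no count and 5 were tested. Of these 5, 4 fell and 0 rose, with a median log2 fold change of -1.11, where 16.3% of all genes tested were called lower. Igtp and Irgm2 encode immunity-related GTPases that act on pathogen vacuoles. Igtp fell from 9.57 and 10.2 CPM to 3.53 and 2.79 CPM (-1.65 ± 0.22, edgeR adjusted p = 1.97e-06), Irgm2 by 1.11 ± 0.19 on the log2 scale, and Gvin1 by 1.75 ± 0.59 on few counts. The fourth, Irgm1, named after its values were seen, fell by 0.31 ± 0.11. Only 2 of the 4 were called in DESeq2, without vehicle 1, or without vehicle 2.

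Of 38 tested other interferon-stimulated genes, 5 rose, 12 fell and the other 21 missed the threshold, with a median of -0.078. The shares over all genes tested were 13.6% higher and 16.3% lower. Without vehicle 1, 3 were called higher. The dNTP hydrolase gene Samhd1 fell from 111 and 111 CPM to 60.8 and 57.2 CPM (-0.91 ± 0.075, edgeR adjusted p = 5.76e-10). The galectin gene Lgals9 fell by 0.47 ± 0.061 and Lgals3bp, a secreted galectin-binding glycoprotein gene, by 0.44 ± 0.061. SGC-CBP30 1 was the higher treated library in 29 of these 38 genes, with a median log2 ratio to SGC-CBP30 2 of 0.058. For receptors and JAK-STAT genes that count was 8 of 16, and for sensing adaptors 8 of 15. It was 4 of 5 for the GTPases (median 0.20) and 9 of 10 for the epithelial markers (median 0.17), so a higher level in SGC-CBP30 1 was not limited to the members.

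**Figure D4:**
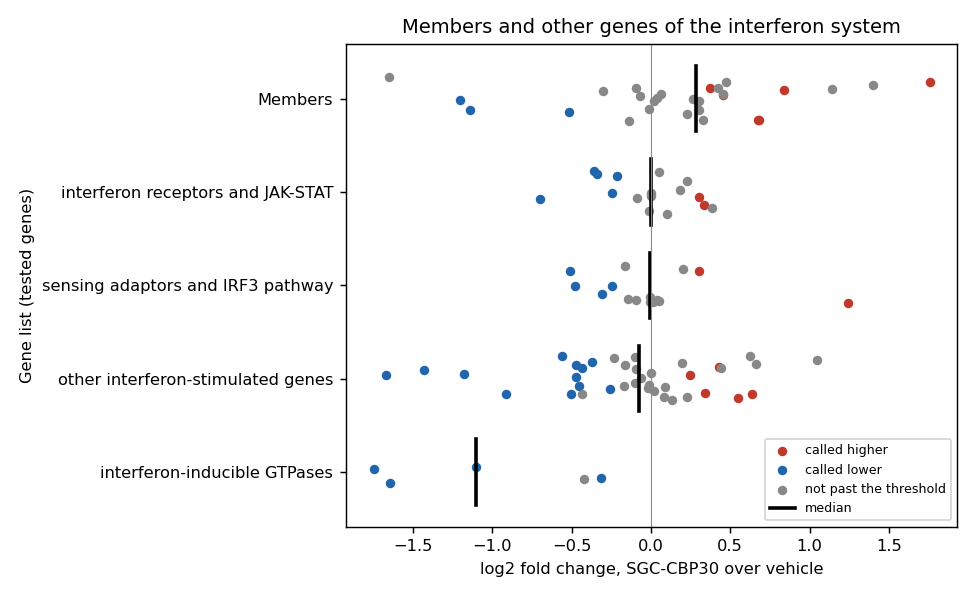
Log2 fold change (SGC-CBP30 over vehicle) for the tested genes of the members and of 4 other lists of the interferon system; each point is 1 gene coloured by call, spread vertically for legibility, and the black bar is the list's median. The members' median is 0.28, and that of the 5 GTPases is -1.11. Members and lists were chosen with earlier results of these data known.

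The authors' deposited table gives 4 members higher and 3 lower under an adjusted p of 0.05. In the authors' deposited table Ifit3 (adjusted p = 0.199) and Oas3 (adjusted p = 0.186) are not past that threshold.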

How the data were processed

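RNA was sequenced in 4 libraries of irradiated organoids. Per the submitters' processing notes, featureCounts 1.5.0-p3, HISAT2 2.0.5, StringTie 1.3.3b and build mm9 were used, in roles that are not given. The deposited gene coordinates equal those of GENCODE M21 (GRCm38) for all 31 members and for 98.4% of 51487 shared identifiers, so GRCm38 is used. How strand and multiply mapped reads were handled is not given in the sources used here. Per the file headers, the deposited table holds raw counts, FPKM, group means (a signal on the scale of normalized counts), a log2 fold change and its p-value and adjusted p-value; the test behind the authors' values is not named. Only counts and gene length entered the fits. The table stops within its last line, and later genes were not used here.

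Counts were fitted with edgeR 4.0.16 (R 4.3.3): filterByExpr, TMM, robust quasi-likelihood test, no covariate, Benjamini-Hochberg adjustment over all genes tested, threshold 0.05. The SE is the log2 fold change over the root of the F statistic. CPM and RPKM use TMM-scaled totals. The fit was tested on simulated data. Alternatives were DESeq2 1.42.0, library totals, other filters (at least 1 count, or at least 50 counts in 2 libraries), a replicate block and each library left out. The members and lists were chosen with earlier results of these data known. All members are named, with up to 3 called genes of smallest p in each other list. Promoter sequences are RefSeq's, build GRCm38.p6. Of the 31 members, 9 are without a promoter window here: Oas2, Ifi27, Mx1, Mx2, Parp14, Rtp4, Usp18, Dhx58 and Zbp1.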

Additional observations from a re-analysis of the deposited data

How the results depend on the processing

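With each library left out in turn, the number of genes called ranged from 2899 (without vehicle 2) to 4557, members called higher from 4 to 9, and members called lower stayed at 3. The members' median log2 fold change ranged from 0.035 (without SGC-CBP30 1) to 0.38. DESeq2 called 3061 genes, 1244 of them higher, and 4 members higher and 3 lower. Under library totals 8 members were higher, and with at least 50 counts in 2 libraries 5 were. Under that count filter the members' median log2 fold change was 0.13, against 0.28 in the main fit. The calls of Irf7, Oas1a, Oasl1, Ifih1, Mx1, Ifitm3 and Parp14 held in every alternative, with log2 fold changes of 0.51 to 0.83 for Irf7 and 0.53 to 0.82 for Oas1a. Over all member results and alternatives, 213 kept direction and side, 7 lost and 7 gained a call, and 15 uncalled values changed sign. Calls in the small lists moved too: receptor genes called lower were 3 without either vehicle library and those called higher 4 under library totals; sensing adaptors called higher fell to 0 without vehicle 2 or SGC-CBP30 1 and those called lower to 2 without either vehicle library; other interferon-stimulated genes called higher fell to 3 in DESeq2 and without vehicle 1. The cause was not tested.

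Whether the replicate numbers shared by the groups pair the libraries is not known here. Deviations of same-numbered libraries from their group means had a correlation of -0.024 across 14684 genes. With 2 libraries per group this cannot settle the pairing. With a replicate block 4703 genes, 7 members higher and 3 lower were called, the added member being Ifi27 (adjusted p = 0.0455). Genes under about 1 CPM, such as Ifit3, Usp18 and Zbp1, are limited by their counts.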
